A study of Mus musculus with 22 samples.

Results

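The resident-type macrophage genes are 10 genes, *Hpgd*, *Selenop* (formerly *Sepp1*), *Pltp*, *Cd5l*, *F13a1*, *Mrc1*, *Folr2*, *Marco*, *Lyve1* and *Cd163*, of the 55401 gene identifiers in the count table. They were selected from genes typical of fetal and tissue-resident macrophages when their levels in these libraries were already known, so every level, fold change and count given for them is a description and carries no test. RNA-seq was performed on 22 libraries from mouse embryonic fibroblasts (MEFs), primary cells grown from embryo bodies without head and viscera. The question was how serial passaging, which drives MEFs into senescence, changes the transcriptome with and without the ribosomal S6 kinases S6K1 and S6K2, which act downstream of mTORC1. The *S6K1* set held early-passage *S6K1* WT MEFs (passage 3, *n* = 4), late-passage *S6K1* WT MEFs (passage 8, *n* = 4) and late-passage *S6K1* KO MEFs (passage 8, *n* = 3), with WT and KO embryos from the same mothers. The *S6K1/S6K2* set held early WT (passage 3, *n* = 4), late WT (passage 8, *n* = 4) and late DKO MEFs (passage 8, *n* = 3). The DKO MEFs came from crosses in which both parents lacked *S6K2*, and their WT controls came from other, WT mothers, so that genotype and litter cannot be told apart in that set. Neither set has an early-passage KO or DKO group. All MEFs were primary and carried no transgene that the labels name.

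Tissue-resident macrophages settle in embryonic organs from yolk sac and fetal liver progenitors and maintain themselves by local division under CSF1 receptor signalling. They clear dying cells, lipoprotein lipids, haemoglobin and sulphated glycoproteins, and many of the genes that mark them encode the receptors and secreted proteins of that clearance. *Hpgd* encodes the enzyme that inactivates prostaglandin E2, *Selenop* the secreted carrier of selenium, *Pltp* a secreted phospholipid transfer protein, *Cd5l* a secreted scavenger protein known as AIM, and *F13a1* the A subunit of the transglutaminase factor XIII. *Mrc1* encodes the mannose receptor CD206, *Folr2* folate receptor beta, *Marco* a class A scavenger receptor, *Lyve1* a hyaluronan receptor and *Cd163* the receptor for haptoglobin-haemoglobin complexes.

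To show the sequence next to 4 of the members, the 250 bases before the RefSeq transcription start (GRCm38.p6) are printed for *Hpgd* (chr8:56294302-56294551, + strand), *Selenop* (chr15:3270517-3270766, + strand, the first of its 3 listed starts), *Cd5l* (chr3:87357631-87357880, + strand) and *Mrc1* (chr2:14229164-14229413, + strand). These 4 are the most abundant enzyme, the most abundant gene, and the genes with the widest fitted differences with passage (*Cd5l*, in the *S6K1/S6K2* set) and with genotype (*Mrc1*). Each is written 5′ to 3′ on the strand of the gene, and capitals mark a match to one of the motifs named after the sequences.
Hpgd: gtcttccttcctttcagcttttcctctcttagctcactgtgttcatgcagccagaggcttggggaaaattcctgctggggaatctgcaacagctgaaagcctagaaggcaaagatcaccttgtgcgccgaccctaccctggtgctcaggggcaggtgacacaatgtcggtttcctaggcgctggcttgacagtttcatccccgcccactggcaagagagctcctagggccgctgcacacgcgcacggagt
Selenop: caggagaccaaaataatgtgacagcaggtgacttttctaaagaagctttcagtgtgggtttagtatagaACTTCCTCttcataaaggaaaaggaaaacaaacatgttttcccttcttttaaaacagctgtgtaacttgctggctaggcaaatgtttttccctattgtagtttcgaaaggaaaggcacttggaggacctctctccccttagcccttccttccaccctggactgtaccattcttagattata
Cd5l: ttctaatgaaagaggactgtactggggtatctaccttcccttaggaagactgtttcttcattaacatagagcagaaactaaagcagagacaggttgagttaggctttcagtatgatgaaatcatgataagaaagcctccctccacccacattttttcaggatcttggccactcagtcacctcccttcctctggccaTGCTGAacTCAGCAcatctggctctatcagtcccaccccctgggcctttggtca
Mrc1: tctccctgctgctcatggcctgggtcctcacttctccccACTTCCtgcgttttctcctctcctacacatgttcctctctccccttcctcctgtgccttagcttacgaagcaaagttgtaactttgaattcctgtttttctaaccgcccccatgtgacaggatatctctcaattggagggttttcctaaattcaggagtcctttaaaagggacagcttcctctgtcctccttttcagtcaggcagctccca

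The motifs were searched on both strands. They were the PU.1 core GGAAGT and its longer form GAGGAAGT, which holds the core, the MAF core TGCTGA, the C/EBP motif TTGCNNAA, the AP-1 motif TGANTCA, the E-box CACGTG and the LXR direct repeat. PU.1 and MAF factors are transcription factors of the macrophage lineage, and LXR is the sterol receptor that drives *Pltp* and *Cd5l* in macrophages. The RefSeq table held 13 windows for 9 of the 10 members and 32851 windows in all, and *Lyve1* had none. *Mrc1* held the PU.1 core 211 to 206 bases before its start. *Selenop* held the longer PU.1 form 181 to 174 bases before its first start. The PU.1 core was found in 5 of the 13 windows, belonging to *Selenop* (2 overlapping windows), *Mrc1*, *F13a1* and *Folr2*, and in 19.7% of all windows of this length; the longer form was in 2.44% of all windows. *Cd5l* held the MAF core at 2 places, 54 to 49 and 46 to 41 bases before its start and on opposite strands, and *Folr2* held it in 2 windows, against 16.1% of all windows. *Pltp* held the C/EBP motif and *Folr2* the AP-1 motif, which were in 9.56% and 6.75% of all windows. No member window held the E-box (6.02% of all windows) or the LXR repeat (0.0152%). In *Hpgd*, *Marco* and *Cd163* none of these letters were found.

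Levels are given as CPM, the count of a gene divided by the total count of its library and scaled to 1000000 counts. *Hpgd* (ENSMUSG00000031613.9, chr8:56294552-56321046) was at 6.58, 5.89, 5.46 and 3.60 CPM in the 4 early WT libraries of the *S6K1* set, at 89.6, 58.1, 106 and 60.6 CPM in late WT and at 28.4, 46.4 and 32.1 CPM in late KO. Its levels in the *S6K1/S6K2* set were 9.54, 7.51, 6.42 and 6.93 CPM in early WT, 89.4, 95.3, 69.8 and 46.5 CPM in late WT and 16.9, 7.35 and 9.58 CPM in late DKO. All 8 late WT libraries lay above all early WT libraries, and no KO or DKO library reached the lowest late WT library of its set. The mean was 14.6-fold higher in late than in early WT in the *S6K1* set and 9.90-fold higher in the *S6K1/S6K2* set. Late KO MEFs remained 6.62-fold above early WT without overlap, whereas late DKO libraries overlapped the early WT range. On the log2 scale of the fit over all genes, the differences were 3.85 ± 0.24 (SE) and 3.39 ± 0.29 with passage, −1.12 ± 0.23 in KO and −2.72 ± 0.32 in DKO.

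*Selenop* (ENSMUSG00000064373.12, chr15:3270767-3280510) was the most abundant member in every group. It was at 83.9, 176, 94.5 and 155 CPM in early WT, 749, 622, 879.6 and 604 CPM in late WT and 167, 312 and 224 CPM in late KO of the *S6K1* set. The corresponding libraries of the *S6K1/S6K2* set were at 83.7, 60.1, 85.8 and 87.4 CPM, 374, 638, 624 and 401 CPM, and 181, 179 and 151 CPM in late DKO. Again the late WT libraries stood above all others of their set, and the KO libraries overlapped early WT while the DKO libraries lay above it. The late WT mean was 5.60-fold and 6.42-fold that of early WT, and it was 3.04-fold that of KO and 2.99-fold that of DKO. The fitted differences were 2.42 ± 0.31 and 2.77 ± 0.23 with passage, and −1.58 ± 0.33 in KO and −1.57 ± 0.24 in DKO.

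*Pltp* (ENSMUSG00000017754.13, chr2:164839518-164857708, − strand) was at 32.7, 26.5, 34.4 and 20.7 CPM in early WT, 61.9, 83.2, 137 and 50.4 CPM in late WT and 40.3, 62.4 and 35.3 CPM in late KO of the *S6K1* set. The *S6K1/S6K2* set gave 34.7, 29.7, 40.0 and 39.3 CPM in early WT, 116, 150.5, 103 and 109 CPM in late WT and 108, 111 and 118 CPM in late DKO. Early and late WT did not overlap in either set, KO overlapped late WT, and the DKO libraries lay inside the late WT range. *Pltp* was therefore the member with the smallest difference between DKO and late WT, at −0.07 ± 0.15 on the log2 scale, and in KO it was −0.83 ± 0.29. With passage it was 1.52 ± 0.27 and 1.81 ± 0.15, the lowest of the fitted members in the *S6K1* set and above only *Mrc1* in the *S6K1/S6K2* set.

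*Cd5l* (ENSMUSG00000015854.7, chr3:87357881-87371074) was close to the limit of detection at early passage. Its counts were 0, 3, 0 and 0 in early WT, 18, 10, 13 and 6 in late WT and 10, 10 and 5 in late KO of the *S6K1* set. The counts in the *S6K1/S6K2* set were 0, 1, 1 and 0 in early WT, 28, 44, 56 and 85 in late WT and 10, 3 and 4 in late DKO. Late WT lay above early WT in both sets, at a mean of 0.850 ± 0.367 CPM (SD, *n* = 4) and 3.62 ± 1.66 CPM (SD, *n* = 4). Pooled over the libraries of a group, the ratio of late to early WT was 17.4 (exact 95% counting interval 5.60 to 87.4) in the *S6K1* set and 111 (30.3 to 920.4) in the *S6K1/S6K2* set, intervals that cover counting error only. KO overlapped late WT (log2 difference −0.60 ± 0.69), and all 3 DKO libraries lay below late WT (−2.97 ± 0.60, and −3.71 without DKO replicate 1).

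*Mrc1* (ENSMUSG00000026712.3, chr2:14229414-14332023) showed the widest difference between late WT and knockout cells in both sets. It was at 11.4, 18.4, 22.8 and 10.4 CPM in early WT, 68.6, 62.7, 139 and 58.8 CPM in late WT and 18.9, 27.4 and 15.1 CPM in late KO of the *S6K1* set. In the *S6K1/S6K2* set it was at 14.6, 8.29, 18.6 and 22.9 CPM in early WT, 32.5, 70.9, 33.9 and 42.0 CPM in late WT and 5.49, 0.838 and 1.71 CPM in late DKO. The late WT libraries lay above the early WT libraries in both sets, and KO libraries overlapped early WT. The DKO libraries lay below early WT as well as below late WT: the DKO mean was 16.8-fold below late WT and 6.02-fold below early WT. No other member had all DKO libraries below all early WT libraries. The fitted differences were 2.36 ± 0.31 and 1.54 ± 0.46 with passage, −1.98 ± 0.34 in KO and −4.03 ± 0.60 in DKO, the last of which was −5.10 without DKO replicate 1.

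*Folr2* (ENSMUSG00000032725.10, chr7:101839988-101857190, − strand) was at 0.635, 0.638, 0.607 and 0.225 CPM in early WT, 7.28, 2.21, 5.27 and 6.44 CPM in late WT and 1.96, 2.86 and 1.74 CPM in late KO of the *S6K1* set. In the *S6K1/S6K2* set the values were 1.16, 1.04, 2.51 and 0.933 CPM, 6.94, 8.64, 3.72 and 8.33 CPM, and 2.10, 0.652 and 1.71 CPM in late DKO. The late WT libraries were above early WT in both sets, and late WT replicate 2 of the *S6K1* set fell inside the KO range. KO libraries lay above all early WT libraries, whereas DKO libraries overlapped early WT. The fitted differences were 3.30 ± 0.42 and 2.35 ± 0.42 with passage, −1.26 ± 0.41 in KO and −2.18 ± 0.47 in DKO.

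*Marco* (ENSMUSG00000026390.7, chr1:120474538-120505024, − strand) was detected above a few counts in a single MEF set. Its counts in the *S6K1* set were 5, 0, 2 and 4 in early WT, 136, 29, 34 and 34 in late WT and 27, 36 and 16 in late KO. In the *S6K1/S6K2* set they were 0, 0, 2 and 2 in early WT, 8, 0, 2 and 0 in late WT and 1, 0 and 1 in late DKO. Every late WT library of the *S6K1* set was above every late WT library of the *S6K1/S6K2* set, at 2.04 to 10.3 CPM against 0 to 0.500 CPM. Within the *S6K1* set, the pooled ratio of late to early WT was 23.5 (exact 95% counting interval 12.9 to 47.8), and KO overlapped late WT. Late WT replicate 1 stood far above the other late WT libraries: without it the fitted difference with passage went from 4.54 ± 0.76 to 3.64 ± 0.59, and that in KO from −1.31 ± 0.66 to −0.41 ± 0.53. Late WT counts of the *S6K1/S6K2* set were 2.60-fold those of early WT, with an interval of 0.750 to 11.4 that includes no change.

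Of the remaining members, *Cd163* (ENSMUSG00000008845.9, chr6:124304636-124330529) had 0 counts in all 22 libraries, which allows up to 3 counts, or 0.173 to 0.279 CPM, in a library. *Lyve1* (ENSMUSG00000030787.4, chr7:110850607-110862953) had 0 to 10 counts in any library and 62 in all, and its groups overlapped in every comparison. *F13a1* (ENSMUSG00000039109.16, chr13:36867178-37050244) had 0 to 9 counts in any library and 50 in all. It was the only member with every late WT library below every early WT library in a set: its counts in the *S6K1* set were 3, 2, 4 and 7 in early WT and 1, 0, 0 and 1 in late WT, a pooled ratio of 0.139 (exact 95% counting interval 0.0155 to 0.591), while in the *S6K1/S6K2* set 14 early WT counts stood against 14 late WT counts. These 3 genes did not pass the filter on low counts. Fitted without that filter or with DESeq2, neither *F13a1* nor *Lyve1* was called in any comparison, and a difference in *Lyve1* or *Cd163* was not detectable at this depth.

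**Figure D1:**
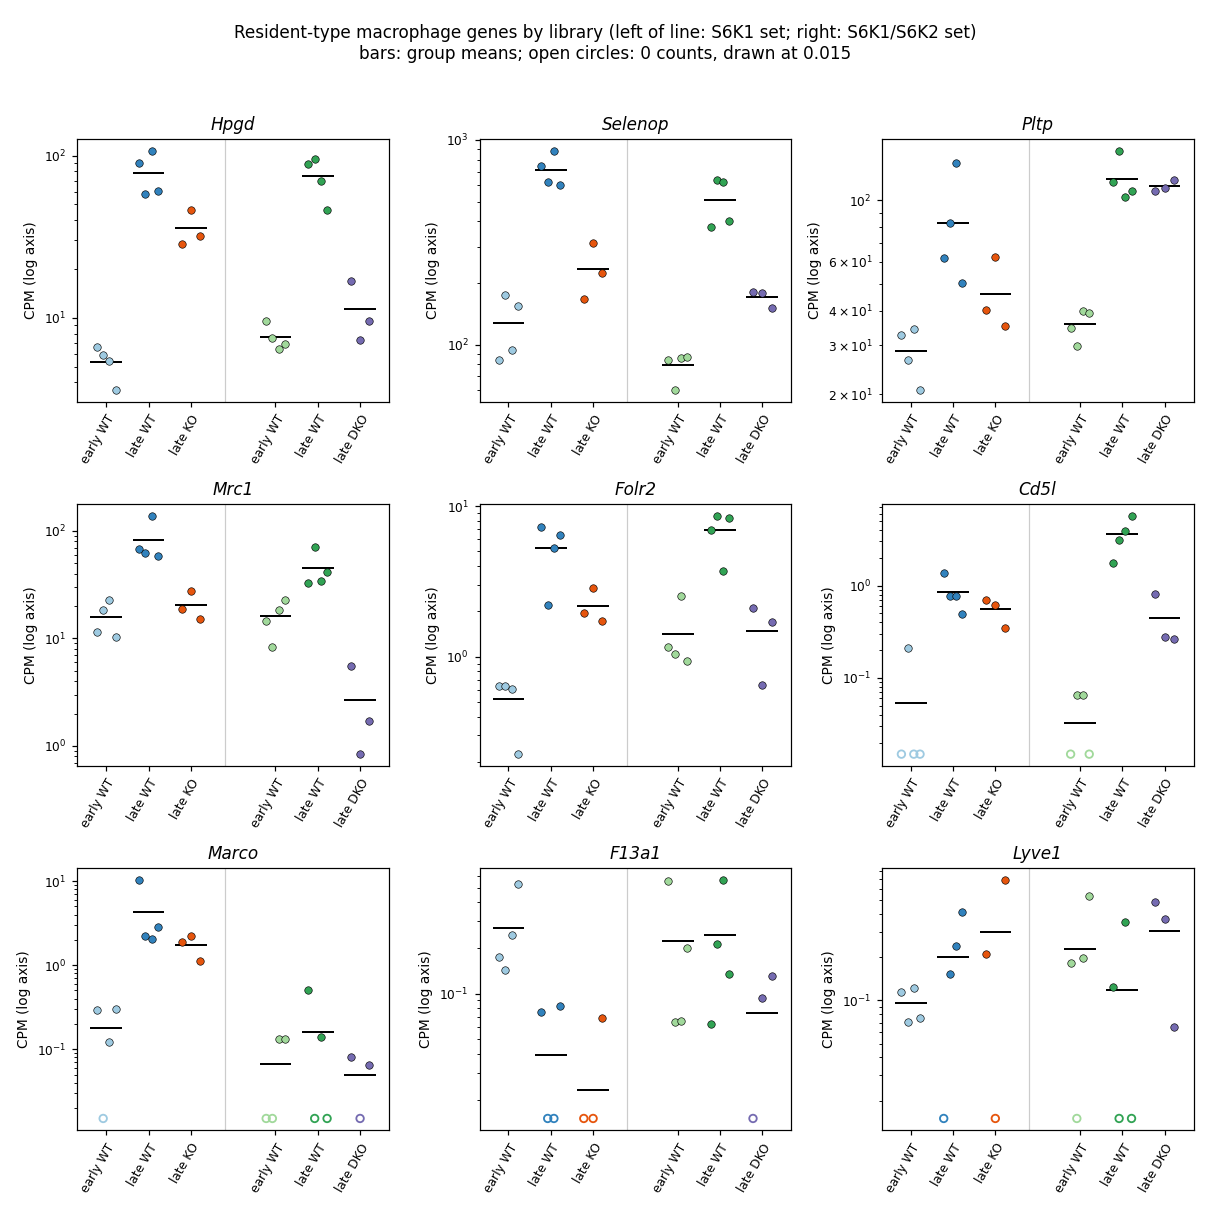
CPM (log axis) of 9 members in each of the 22 libraries, in 6 groups; points are libraries, bars are group means, open circles are libraries with 0 counts drawn at 0.015. *Hpgd*, *Selenop*, *Mrc1* and *Folr2* peak in both late WT groups, *Pltp* stays at 108 to 118 CPM in late DKO, and *Marco* passes 1 CPM in late libraries of the *S6K1* set alone; *Cd163* (0 counts throughout) is not drawn.

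Levels of different genes were compared per kilobase of exon. In late WT MEFs of the *S6K1* set the order of mean CPM per kilobase was *Selenop* (251), *Hpgd* (45.7), *Pltp* (32.4), *Mrc1* (13.8), *Folr2* (5.01), *Marco* (2.19) and *Cd5l* (0.417). The libraries of *Hpgd* and *Pltp*, of *Pltp* and *Mrc1*, and of *Folr2* and *Marco* overlapped. In late WT MEFs of the *S6K1/S6K2* set the order was *Selenop* (179), *Pltp* (46.7), *Hpgd* (43.8), *Mrc1* (7.54), *Folr2* (6.53), *Cd5l* (1.78) and *Marco* (0.0806), with overlap between *Pltp* and *Hpgd* and between *Mrc1* and *Folr2*. In late DKO MEFs the mean of *Folr2* (1.40) was above that of *Mrc1* (0.450) with overlapping libraries, and *Pltp* (43.9) stood ahead of *Hpgd* (6.57) without overlap. *Lyve1* and *F13a1* were at or below 0.118 CPM per kilobase in every group.

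Across all genes, a gene was called when it passed a false discovery rate (FDR) of 5% in edgeR's quasi-likelihood test over the genes that passed the filter on low counts. In the *S6K1* set 7 of 7 members tested were called higher in late than in early WT, where 6.96% of 14132 genes tested were. In the *S6K1/S6K2* set 6 of 6 were called higher, where 8.28% of 14365 genes were. In DKO against late WT 5 of 6 were called lower, all but *Pltp*, where 3.95% of genes were. In KO against late WT 0 of 7 were called, where 0.0354% of genes were called lower. All 7 had lower values in KO, 5 of them with an unadjusted *P* below 0.05 in edgeR. Of all 14132 genes tested, 1499 had such a *P* in either direction. DESeq2 called 3 members lower, *Hpgd*, *Mrc1* and *Selenop*, where 158 of 14825 genes were. Because the members were chosen with these values known, and those with few counts in every group were not tested, nothing is read from these shares. In DKO the count was 3 without DKO replicate 2 or without DKO replicate 3, where *Cd5l* and *Folr2* were not called, and 4 without late WT replicate 2, where *Folr2* was not called. *Mrc1* was not called with passage in the *S6K1/S6K2* set when any of 7 libraries was left out or without the filter on low counts. In the *S6K1* set *Cd5l* did not pass that filter, and so was not tested, without late WT replicate 3 or with the 2 groups fitted alone. After the filter *Cd163*, *F13a1* and *Lyve1* were tested in neither set and *Marco* in the *S6K1* set alone; without the filter and with DESeq2, all members but *Cd163* were fitted in both sets.

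The median log2 fold change over the tested members was 3.30 and 2.56 with passage in the *S6K1* and *S6K1/S6K2* sets, −1.26 in KO and −2.45 in DKO, beside medians over all genes tested of −0.04, 0.01, −0.01 and −0.01. Every library lay above every early WT library for 7 of 7 tested members in late WT of the *S6K1* set and 6 of 6 in the *S6K1/S6K2* set, as it did for 8.40% and 10% of all genes tested. Every KO library lay below every late WT library for *Hpgd*, *Selenop* and *Mrc1*, against 7.01% of genes, and every DKO library did so for 5 of 6 tested members, against 10.5% of genes. Whether passage or genotype acted differently in the 2 MEF sets was tested by interaction terms over all 22 libraries. None of 7 members was called in either, beside 0.712% of 14886 genes for passage and 0.00672% for genotype (edgeR). For passage 0 members, and for genotype 4, had an unadjusted *P* below 0.05 in edgeR, as had 1421 and 1626 of the 14886 genes. DESeq2 called 0 members for passage, where 218 of 17647 genes were called. For genotype it called 1, *Hpgd*, where 63 of 16454 genes were called.

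**Figure D2:**
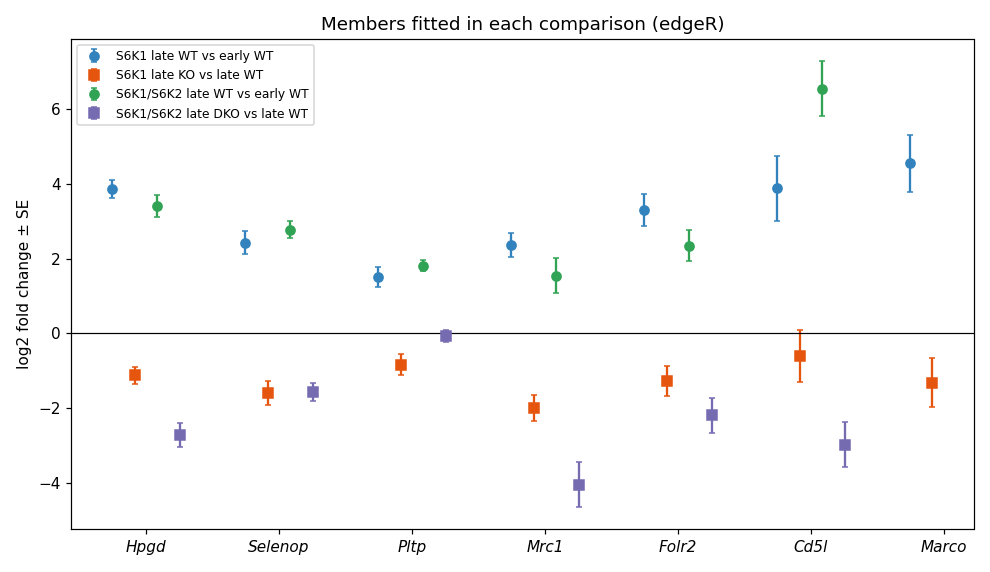
Fitted log2 fold change ± SE (edgeR) of the 7 members that entered a fit, in the 4 comparisons (4 against 4 libraries for passage, 3 against 4 for KO and DKO). Circles (passage) lie above 0 and squares (genotype) below it, with *Pltp* in DKO at −0.07; the *Cd5l* passage values rest on 3 and 2 counts at early passage and depend on the prior count.

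The labelled cell type was checked against fibroblast genes. The summed level of 8 fibroblast genes, among them the collagens *Col1a1* and *Col1a2*, was 19488 to 26372 CPM in early WT, 8182 to 17267 CPM in late WT and 8196 to 12869 CPM in late KO of the *S6K1* set, and 18441 to 29877, 8979 to 13647 and 12353 to 16678 CPM in early WT, late WT and late DKO of the *S6K1/S6K2* set. It was thus lower in late than in early WT without overlap in both sets. The fitted members were higher there, and the part of the fibroblast sum in their CPM was not tested. Of the 8 genes *Col1a1* and *Col1a2* were called lower with passage in both sets and *Pdgfrb* higher in DKO. With passage 6 of the 8 had lower and 2 had higher fitted values in each set. *Dcn* was among the higher ones (1.55 ± 0.65 and 1.07 ± 0.37, not called). Genes that macrophages of any kind express were present in every library as well. The sum of 20 such pan-macrophage genes, among them the CSF1 receptor *Csf1r*, the C1q chains and *Lyz2*, was 474 to 1208 CPM in early WT, 5399 to 11463 CPM in late WT and 3791 to 4722 CPM in late KO of the *S6K1* set. It was 679 to 2134 CPM in early WT, 8213 to 13568 CPM in late WT, and 3470.3, 1089 and 1053 CPM in the 3 late DKO libraries. With passage 19 of the 20 were called higher in each set (median log2 fold change 2.98 and 2.54). In DKO 19 of 20 were called lower (median −2.37) and in KO 0 of 20 (median −0.87). In all 4 comparisons the fitted members differed in the same direction as the median of these genes, *Pltp* in DKO by −0.07 only. In whole cultures fewer macrophages, less RNA per macrophage and expression of a member by other cells, such as the fibroblasts, cannot be told apart.

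Each member was also expressed per 1000 CPM of the pan-macrophage sum of its library, as a description. This ratio does not show which cells express a member. *Hpgd* had group means of 6.49, 9.56 and 8.15 in early WT, late WT and late KO of the *S6K1* set and of 6.85, 6.99 and 6.91 in early WT, late WT and late DKO of the *S6K1/S6K2* set. Early and late WT did not overlap in the *S6K1* set, and all other groups overlapped within their set. The *Hpgd* ratio depended on the denominator: late over early WT was 1.02 in the *S6K1/S6K2* set against the sum and 1.95 against *Csf1r* alone, with overlap in both, and 1.47 to 1.83 in the *S6K1* set over the 4 denominators tried, without overlap. KO and early WT did not overlap against *Csf1r* alone, the C1q genes alone or the median of the list. *Folr2* had ratios of 0.598, 0.638 and 0.503, and of 1.13, 0.670 and 0.941, with overlap between the groups of each set. Its passage ratio in the *S6K1/S6K2* set was 0.593 against the sum and 1.08 against *Csf1r* alone, so that its direction was not settled.

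*Mrc1* differed from *Hpgd* in this ratio. It was at 18.6 ± 4.50, 10.03 ± 3.20 and 4.72 ± 1.41 (SD) in early WT, late WT and late KO of the *S6K1* set, and at 11.9 ± 2.01, 4.17 ± 1.16 and 1.32 ± 0.480 in early WT, late WT and late DKO of the *S6K1/S6K2* set. The 3 DKO libraries, at 1.58, 0.769 and 1.62, lay below all late WT libraries (3.12 to 5.23), and the late WT libraries lay below all early WT libraries (10.2 to 14.7). In the *S6K1* set neighbouring groups overlapped, and the KO libraries (3.20 to 5.99) lay below all early WT libraries (12.1 to 21.9). Against *Csf1r* alone, the C1q genes alone or the median of the list, *Mrc1* remained lower relative to macrophage genes in late than in early WT, and lower in KO and in DKO than in late WT.

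*Pltp* and *Selenop* had the opposite ratio in DKO. *Pltp* was at 34.5 ± 6.72, 10.5 ± 4.63 and 10.6 ± 3.09 (SD) in the groups of the *S6K1* set and at 29.7 ± 11.7, 11.3 ± 1.55 and 81.9 ± 44.3 in those of the *S6K1/S6K2* set, where the DKO libraries were at 31.1, 102 and 112 and all late WT libraries at 9.45 to 13.2. *Selenop* was at 175 ± 117, 89.8 ± 20.7 and 53.2 ± 13.1, and at 65.1 ± 24.7, 47.5 ± 8.32 and 119.9 ± 59.7; DKO replicate 1, the DKO library with the most macrophage signal, was at 52.1 and overlapped late WT, and the other DKO libraries were at 164 and 144. For *Selenop* the direction of the passage ratio in the *S6K1/S6K2* set depended on the denominator, with a log2 change of −0.45 against the sum and 0.48 against *Csf1r* alone. *Cd5l*, at 0 to 3 counts in early WT, was at 0.364 ± 0.234 in late WT and 0.246 ± 0.0123 in late DKO per 1000 CPM, and these groups overlapped.

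**Figure D3:**
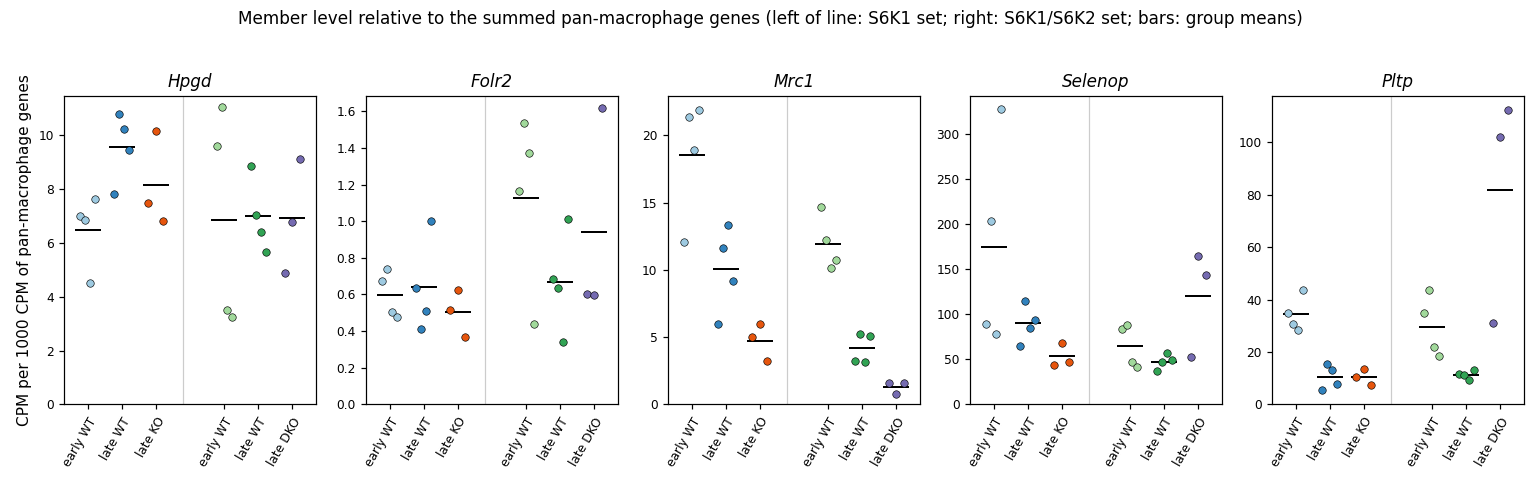
CPM of 5 members per 1000 CPM of the 20 pan-macrophage genes in each of the 22 libraries (linear axis from 0); points are libraries and bars group means. *Hpgd* stays between 3.25 and 11.1 in all groups, and *Mrc1* is lowest in late DKO (0.769 to 1.62). In late DKO all *Pltp* values (31.1 to 112) and 2 of 3 *Selenop* values lie above late WT of the same set. *Selenop* is highest in early WT replicates 4 and 2 of the *S6K1* set (328 and 204).

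**Figure D4:**
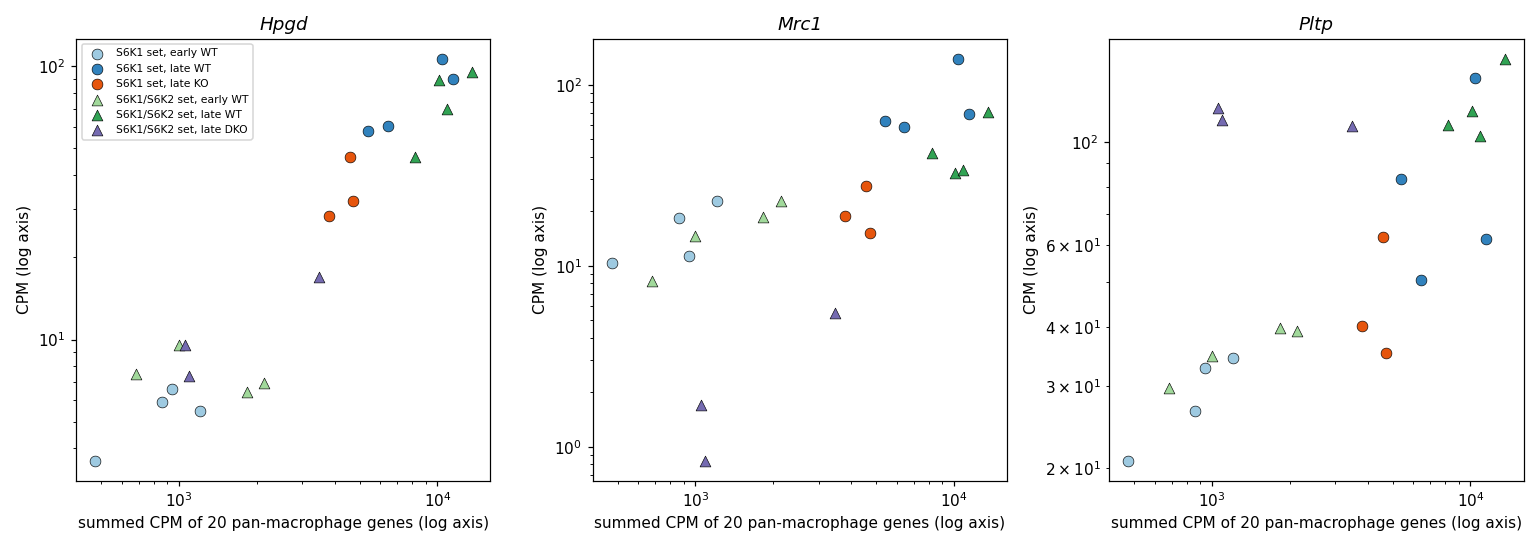
Levels of *Hpgd*, *Mrc1* and *Pltp* in CPM against the summed CPM of the 20 pan-macrophage genes, 1 point for each of the 22 libraries, both axes log. *Hpgd* rises with the macrophage sum between the groups of each set, but not within every group. In early WT of the *S6K1/S6K2* set the libraries with the highest sums (1831 and 2134 CPM) have the lowest *Hpgd* (6.42 and 6.93 CPM). The late DKO libraries lie below the other groups for *Mrc1* (0.838 to 5.49 CPM) and above libraries of similar macrophage sum for *Pltp* (108 to 118 CPM).

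Other genes typical of resident macrophages were present in part. Of 20 such genes outside the members, 11 were tested; the Kupffer cell genes *Vsig4* and *Clec4f* and the lectins *Cd209f* and *Cd209b* had 0 counts in all 22 libraries. With passage 5 of 11 rose in the *S6K1* set and 6 of 11 in the *S6K1/S6K2* set, and none fell. *Fcrls*, an Fc receptor-like gene of microglia, rose by 3.17 ± 0.30 and 2.65 ± 0.51 on the log2 scale. *Stab1*, a scavenger receptor gene, rose by 2.54 ± 0.25 and 1.81 ± 0.51. The ficolin gene *Fcna* and the chemokine gene *Ccl8* rose in both sets, *P2ry12* in the *S6K1* set, and the transcription factor gene *Maf* (1.01 ± 0.18) in the *S6K1/S6K2* set. In DKO 6 of 11 fell, among them *P2ry12* (−3.43 ± 0.88) and the sialoadhesin gene *Siglec1* (−3.35 ± 0.54), and in KO 0 of 11 passed. *Ccl8*, at 22.5 ± 10.9 CPM in DKO and 13.5 ± 4.29 CPM in late WT, and *Maf*, at 86.3 ± 16.7 and 97.0 ± 20.3 CPM, did not pass in DKO; both were named after their values were seen.

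Markers of other cell types that can express a member were read beside these results. Summed lymphoid genes were at 0 to 0.186 CPM and summed neutrophil genes at 0 to 0.621 CPM in every library, with *S100a9*, *Ltf*, *Cd8a* and *Ncr1* at 0 counts throughout. Mast cell genes summed to 0.0825 to 1.97 CPM, dendritic cell genes to 0.922 to 3.83 CPM, and hepatocyte genes, of interest for *Selenop*, to 1.81 to 6.17 CPM. Endothelial genes, of interest for *Lyve1* and *Mrc1*, summed to 33.9 to 44.8 CPM in early WT and 16.9 to 28.5 CPM in late WT and KO of the *S6K1* set, and to 39.8 to 42.9 CPM in early WT and 17.8 to 30.7 CPM in late WT and DKO of the *S6K1/S6K2* set. The endothelial transcription factor gene *Erg* fell with passage in both sets (−3.74 ± 0.48 and −3.44 ± 0.76 on the log2 scale), and *Kdr* in the *S6K1* set. Over all libraries, monocyte genes summed to 10.6 to 219 CPM, megakaryocyte genes to 6.94 to 54.2 CPM and osteoclast genes to 4.19 to 26.5 CPM. Of 10 monocyte genes 3 were tested, and *Ifitm6* rose with passage (1.996 ± 0.50) and fell in DKO (−3.79 ± 0.67) in the *S6K1/S6K2* set. Of 6 megakaryocyte genes 3 were tested, and *Pf4*, which macrophages also express, rose with passage in the *S6K1* set (1.19 ± 0.36) and fell in DKO (−2.48 ± 0.59). The osteoclast proton pump gene *Atp6v0d2* rose in both sets (3.19 ± 0.39 and 4.79 ± 0.57) and *Acp5* fell in the *S6K1* set (−2.21 ± 0.49), and neither passed in KO or DKO. The part of each of these cell types in the members' differences was not tested.

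The pathways around the secreted and enzymatic members were followed through their other genes. For prostaglandins in general, among them prostaglandin E2, which the *Hpgd* enzyme inactivates, 3 of 12 tested genes rose with passage in the *S6K1* set. In the *S6K1/S6K2* set 2 rose and 1 fell. *Hpgds*, the haematopoietic prostaglandin D synthase, rose by 2.81 ± 0.30 and 2.94 ± 0.36 on the log2 scale, from 5.33 ± 1.67 to 38.2 ± 9.66 CPM and from 4.81 ± 2.02 to 35.2 ± 6.91 CPM (SD, *n* = 4), and fell in DKO (−2.55 ± 0.40) to 5.93 ± 3.01 CPM (SD, *n* = 3). *Ptger4*, a receptor for prostaglandin E2, rose by 1.74 ± 0.32 and 1.53 ± 0.27 with passage and was at 19.8 ± 2.44 CPM in DKO beside 17.6 ± 4.28 CPM in late WT. The cyclooxygenase gene *Ptgs1* rose in the *S6K1* set (1.06 ± 0.23). The cyclooxygenase gene *Ptgs2* and the synthase gene *Ptges* did not pass in any comparison, and the prostaglandin transporter gene *Slco2a1* fell with passage in the *S6K1/S6K2* set (−2.07 ± 0.30).

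For the LXR pathway, to which *Pltp* and *Cd5l* belong, 3 of 9 tested genes rose and 1 fell with passage in the *S6K1* set, 4 rose and 1 fell in the *S6K1/S6K2* set, and 2 fell in DKO. *Apoe*, the apolipoprotein that macrophages secrete, rose by 4.28 ± 0.45 and 3.48 ± 0.55 and fell in DKO (−2.73 ± 0.59). *Nr1h3*, which encodes LXR alpha, rose by 1.35 ± 0.29 and 2.42 ± 0.34 and was at 2.62 ± 0.796 CPM in DKO beside 3.46 ± 0.652 CPM in late WT, a difference that did not pass. The cholesterol exporter gene *Abcg1* rose in the *S6K1/S6K2* set (1.47 ± 0.29) and fell in DKO (−1.58 ± 0.32), and *Lpcat3* fell with passage in both sets (−0.70 ± 0.15 and −0.48 ± 0.12). Of the 11 genes of the selenoprotein system, which *Selenop* serves as carrier, none passed with passage in the *S6K1* set; the *Selenop* receptor gene *Lrp8* fell with passage in the *S6K1/S6K2* set (−0.83 ± 0.24) and the selenium enzyme gene *Sephs2* in DKO (−0.53 ± 0.13). The selenoprotein list summed to 1146 to 1472 CPM over all libraries.

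The families and pathways of the receptors were followed in the same way. For the handling of haemoglobin, which *Cd163* takes up bound to haptoglobin, and of haem and iron, 5 of 11 genes rose with passage in each set and 3 fell in DKO, although *Cd163* itself had no counts. The ferritin heavy chain gene *Fth1* rose by 1.62 ± 0.25 and 2.11 ± 0.26, the biliverdin reductase genes *Blvra* (−1.06 ± 0.19) and *Blvrb* (−1.07 ± 0.23) fell in DKO, and *Hmox1* rose in the *S6K1/S6K2* set alone (0.85 ± 0.20), with no gene of the list past the test of the difference between sets. Among scavenger receptor genes, the family of *Marco*, 2 of 9 rose in the *S6K1* set, 2 rose and 2 fell in the *S6K1/S6K2* set, and 4 fell in DKO. *Cxcl16* rose by 2.67 ± 0.26 and 2.23 ± 0.37. *Msr1*, the class A scavenger receptor related to *Marco*, rose in the *S6K1* set (1.68 ± 0.31) and fell in DKO (−2.55 ± 0.52), as did *Cd36* in DKO (−3.42 ± 0.56). None of the 3 other mannose receptor family genes and none of 6 tested folate genes passed in any comparison; the fibroblast paralogue *Mrc2*, at 334 to 481 CPM in group means, differed by −0.21 ± 0.20 and −0.45 ± 0.16 with passage. Of the hyaluronan genes around *Lyve1*, *Hmmr* fell with passage in both sets (−1.10 ± 0.25 and −0.72 ± 0.18) and *Cemip* rose in the *S6K1* set (1.35 ± 0.32), and of the 4 tested genes around factor XIII, *Thbd* rose in the *S6K1* set (1.04 ± 0.29). No gene of these lists, nor of the pan-macrophage or other resident-type lists, passed in KO.

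The genes whose pattern was most like that of a member over the 22 libraries were found by Pearson's *r* of log2(CPM + 1) among 13008 genes with a mean of at least 1 CPM, as a description without *P*; the libraries share groups, so *r* mostly follows the group means. *Hpgd* was most like *Sirpa* (*r* = 0.975), *Apobec1* (0.971) and *Lair1* (0.970). *Folr2* was nearest to *Csf2rb2* (0.934), *Nceh1* (0.931) and *Btk* (0.925). *Mrc1* was nearest to *Ms4a6b* (0.950), *Cd93* (0.927) and *Entpd1* (0.926). For *Selenop*, *Rgs10* (0.971) and 5430435G22Rik (0.953) are given. *Pltp* was nearest to *Cpz* (0.939), *Pid1* (0.938) and *Smpdl3a* (0.912), and *Marco* to Gm14221 (0.893), *Siglece* (0.884) and *Tnip3* (0.848). Of the 30 genes of the pan-macrophage and other resident-type lists compared, 7 were among the 50 nearest genes of *Hpgd*, 6 of *Folr2*, 4 of *Mrc1*, 2 of *Marco*, 1 of *Selenop* and 0 of *Pltp*. Among the members, the closest pairs were *Hpgd* and *Selenop* (*r* = 0.902) and *Hpgd* and *Folr2* (0.890), and the least alike were *Pltp* and *Marco* (0.0450) and *Pltp* and *Mrc1* (0.161). For deviations from group means the *Pltp* and *Mrc1* value was 0.622, and that of *Hpgd* and *Selenop* 0.263.

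The libraries held 10742454 to 17314832 counts each. The targeted gene *Rps6kb1*, which encodes S6K1, was at 12.98 to 23.3 CPM in KO and 19.6 to 30.0 CPM in DKO beside 55.0 to 91.9 CPM in late WT. Y-linked genes were expressed in all 3 KO libraries but in 1 of 4 late WT libraries of the *S6K1* set, and in 1 of 3 DKO but 3 of 4 late WT libraries of the *S6K1/S6K2* set, so embryo sex and genotype are partly tied. The late WT library with Y-linked expression in the *S6K1* set, replicate 3, had *Hpgd* at 106 CPM, *Selenop* at 879.6 CPM and *Mrc1* at 139 CPM, above all 3 KO libraries. *Pltp*, *Folr2* and *Cd5l* were above them as well, whereas *Marco*, at 2.04 CPM, lay within the KO range of 1.11 to 2.23 CPM. This is 1 library, from which nothing about embryo sex is read. With a Y-linked covariate 1 member, *Mrc1*, was called in KO, and the members called in the other comparisons stayed at 7, 6 and 5. The labels give separate libraries and not their mothers, so errors measure the spread between libraries.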

How the data were processed

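MEFs were prepared from mouse embryos, passaged serially and sequenced as stranded mRNA libraries with single-end reads. The authors deposited raw counts of reads per gene for each library, with no pooling. According to their methods, reads were mapped to mm9 with TopHat and counted with HTSeq, whereas the submitters' processing notes name mm10, STAR 2.7.1a and DESeq2 1.28.1. Of the 55401 deposited identifiers 22812 were absent from GENCODE vM1, an mm9 annotation, so the annotation release is not settled. Coordinates and promoter windows are therefore RefSeq's for GRCm38.p6 (mm10), and no expression value depends on them. Whether counting used strand is not given in the sources used here. Symbols were taken by identifier from GENCODE vM1 for 32589 identifiers, which held 96.98% of counts, and kilobases are the union of its exons. Liver and RAS-expressing libraries of the study were not analysed here.

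CPM were computed over the total count of each library (10742454 to 17314832, median 14651363.5), for which 3 counts equal 0.173 to 0.279 CPM. All 30 pairs of libraries within a group differed by more than sampling noise (chi-square per degree of freedom 20.6 to 265.7). Differences were fitted over all genes of a MEF set with edgeR 4.0.16 in R 4.3.3 (TMM scaling, filterByExpr, robust quasi-likelihood test, Benjamini-Hochberg adjustment, FDR 5%), and interactions over all 22 libraries. Each SE of a fitted log2 difference was derived as its absolute value divided by the square root of its quasi-likelihood F statistic. The fit was tested on simulated data. Pooled ratios have exact 95% binomial intervals of counting error. DESeq2 1.42.0, RLE scaling, no filter on low counts, 2 groups alone, all 6 groups, a Y-linked covariate, leave-one-out fits and 3 other macrophage denominators were the alternatives. Tables and figures were made with Python 3.11.15, pandas 2.3.3, numpy 2.4.6, scipy 1.17.1 and matplotlib 3.10.9. Members and lists were chosen with earlier results of these data known. All members were named, with the 3 genes most alike for each member above a mean of 1 CPM and, from each other list, the called genes with the largest change or those sharing a reaction or ligand with a member. Some items that this rule would name are not reported here.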

Additional observations from a re-analysis of the deposited data

Results flagged for a closer look

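Within groups of 4 libraries, the highest or lowest library was set apart when its gap to the nearest other library, divided by the range of the group, passed Dixon's 95% critical value of 0.829. This held in 6 of 36 groups. The critical value assumes independent, normally distributed values. These groups share libraries and some hold few counts, so nothing is read from the number flagged. In the *S6K1* set, *Mrc1* was at 138.9 CPM in late WT replicate 3 (gap over range 0.878) and *Marco* at 10.31 CPM in late WT replicate 1 (0.907), each the highest of its group. *Folr2* was lowest in early WT replicate 4, at 0.2251 CPM (0.924), and *Cd5l* was at 0.2128 CPM in early WT replicate 2, which is 3 counts beside 0 in the other early WT libraries. In the *S6K1/S6K2* set, *Folr2* was highest in early WT replicate 3, at 2.514 CPM (0.855), and *Selenop* lowest in early WT replicate 2, at 60.15 CPM (0.866).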

How the results depend on the processing

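The depth limits *Cd5l*, *Marco* in the *S6K1/S6K2* set, *F13a1*, *Lyve1* and *Cd163*, which rest on few counts. No paired analysis was possible because the labels give no numbers that pair libraries, and the replicate numbers are names only. No member's fitted change that was called in the main fit reversed its direction under any alternative run. Changes that were not called, such as that of *Pltp* in DKO, were not checked for a reversal. In KO, the number of genes called went from 6 to 43 without a filter on low counts, 51 with the Y-linked covariate, 250 with DESeq2 and 16 with all 6 groups, and the number of members called from 0 to 2 (*Hpgd*, *Selenop*), 1 (*Mrc1*), 3 (*Hpgd*, *Mrc1*, *Selenop*) and 1 (*Selenop*). The Y-linked covariate raised the genes called with passage in the *S6K1* set from 1827 to 3306. DESeq2 raised them in DKO from 686 to 1172, in the passage interaction from 106 to 218 and in the genotype interaction from 1 to 63, with 1 member (*Hpgd*) in place of 0; without a filter the genotype interaction had 3. The cause was not tested. With 1 library left out, genes called with passage ranged from 1223 to 1749 (*S6K1* set; members 6 to 7) and from 885 to 2247 (*S6K1/S6K2* set; members 5 to 6). They ranged from 2 to 9 in KO (members 0), from 97 (without DKO replicate 2) to 783 in DKO (members 3 to 5), from 78 to 118 in the passage interaction and from 1 to 5 in the genotype interaction (members 0 in both). *Cd5l* in KO went from −0.60 to −0.02 with the Y-linked covariate and to −0.27 without late WT replicate 1. Of the log2 changes in ratio to macrophage genes, 11 of 84 moved by more than the spread between libraries with the denominator.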
